A study of Mus musculus with 14 samples.

Results

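Cell adhesion and axon guidance genes made up 52 of the 3533 genes listed in a comparison of EZH2 LOF with EZH2 WT brainstem tumors of the mouse. They were chosen by gene symbol (cadherins, protocadherins, Fat cadherins, semaphorins, plexins, ephrins and their Eph receptors, netrins, Slit, Robo and Unc5 proteins, contactins, Ncam, neurexins, neuroligins, Lrrn and Lrrtm) from the genes that the authors had called between these groups at an FDR under 0.05. A member also had to have a mean of at least 10 normalized counts in the EZH2 WT tumors and to be absent from the list of genes called in EZH2 GOF tumors. The loss-of-function contrast therefore selected every member, so its differences are given as a description, and the test results beside them are no support for a difference. Of 57 listed genes with a matching symbol, 3 were under the minimum and 2 were also on the EZH2 GOF list. Just above the minimum were Pcdha5 (mean 11.1) and Pcdhac1 (mean 11.4), and just below it were Pcdha6 (mean 9.94), Efna5 (mean 8.88) and Pcdha3 (mean 7.99).

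The study asked what EZH2, the histone methyltransferase of polycomb repressor complex 2, does in diffuse midline glioma without a histone H3 mutation. All 7 tumors used here came from mice with a Nestin-Tv-a transgene and p53f/f alleles and received RCAS Cre, by their labels on a C57BL/6 strain background. The 3 EZH2 WT tumors carried Ezh2wt and the 4 EZH2 LOF tumors Ezh2f/f, so Cre removed p53 in both groups and Ezh2 in the latter. RCAS viruses enter only cells that express the Tv-a receptor, here driven by the Nestin promoter, and by the study's methods PDGF-B was delivered too. The groups thus differ in parental line as well as in Ezh2, which cannot be told apart here, and the study describes the deletion of Ezh2 exons by RCAS Cre as incomplete. The EZH2 GOF experiment, used to leave genes out, set 4 tumors of Nestin-Tv-a mice with an Ezh2Y641F/+ allele and RCAS Cre against 3 of Ezh2wt mice with the control virus RCAS Y, and by the study's methods both received PDGF-B and a short hairpin against p53. Ezh2 is not on the list of called genes, so the targeted gene could not be checked in these libraries.

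Cadherins and protocadherins are membrane proteins that bind a like molecule on the neighboring cell. Clustered protocadherins are encoded in 3 tandem arrays, and in neurons each cell uses a choice of their promoters, which CTCF, cohesin and DNA methylation control, so that the set of isoforms acts as a label for the cell. The alpha and gamma genes join their own variable exon to constant exons shared within their array, whereas each beta gene is a single exon. Semaphorins, netrins, Slits and ephrins are guidance cues, read by plexins, Unc5, Robo and Eph receptors respectively, that steer growing axons and migrating precursor cells by acting on the cytoskeleton.

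Values are normalized counts, which are the reads of a gene scaled to the depth of its library, and errors are SD over n = 3 EZH2 WT and n = 4 EZH2 LOF tumors. These libraries are separate tumors by their labels, so the spread is that between tumors. Depth was unequal: reads in the listed genes ran from 281847 to 1842891 in the EZH2 LOF libraries and from 2763245 to 3685186 in the EZH2 WT libraries. Every EZH2 LOF library was shallower than every EZH2 WT library, so depth and group cannot be told apart here. Accordingly 1 read was worth from 0.379 normalized counts in EZH2 WT replicate 2 to 4.58 in EZH2 LOF replicate 13. A value of 40 in EZH2 LOF replicate 13 thus rests on fewer than 10 reads. In bulk tumors, fewer cells of a type and less RNA per cell cannot be told apart. Of the cell type markers looked up, 14 were on the list, and their levels were lower in the EZH2 LOF mean for each of the 14, with 9 passing limma. Over the whole list, 1806 of 3533 genes were lower and 29.7% passed as lower. Markers off the list were not analysed, so the 14 do not stand for their cell types as a whole. Summed oligodendrocyte precursor markers (Olig2 and Pdgfra, 2 of 6 listed) ranged from 17233 to 28544 in EZH2 WT and from 11192 to 13359 in EZH2 LOF tumors. Mural cell and fibroblast markers (Dcn, Lum and Pdgfrb, 3 of 7 listed) ranged from 375 to 836 in EZH2 WT and from 68.7 to 208 in EZH2 LOF tumors. The corresponding ranges were 2418 to 3360.2 and 1659 to 1967 for mature oligodendrocytes (3 of 10 listed), 5073 to 8866 and 3314 to 4501 for astrocytes (2 of 7 listed), and 996 to 1479 and 513 to 943 for neurons (2 of 13 listed). The single listed marker of microglia and macrophages, Itgam, ranged from 124 to 389 and from 55.0 to 131, and that of endothelial cells, Tek, from 30.01 to 75.7 and from 17.1 to 22.9. No marker on the list was at 0, and the part of these cells in the differences below was not tested.

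The members went in both directions: 28 were higher and 24 lower in EZH2 LOF tumors, and most families went mainly in a single direction. Across the 52 members the median log2 difference (EZH2 LOF minus EZH2 WT, on log2 of normalized count plus 1) was 0.54, against -0.33 over all 3533 genes, and its median size was 0.95 against 0.71. By limma with an adjusted p under 0.05, 20 members were higher (38.5%, where 31.2% of all listed genes were) and 14 were lower (26.9%, against 29.7%), while 18 did not pass. The ranges of the 2 groups did not overlap for 19 higher members (36.5%, against 41.9% of the list) and 19 lower members (36.5%, against 44.6%), and they overlapped for the other 14. Every member kept its direction in all 15 alternative fits, which include leaving out each tumor and another scaling. The members were chosen on these same tumors, so a kept direction is no independent support.

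**Figure D1:**
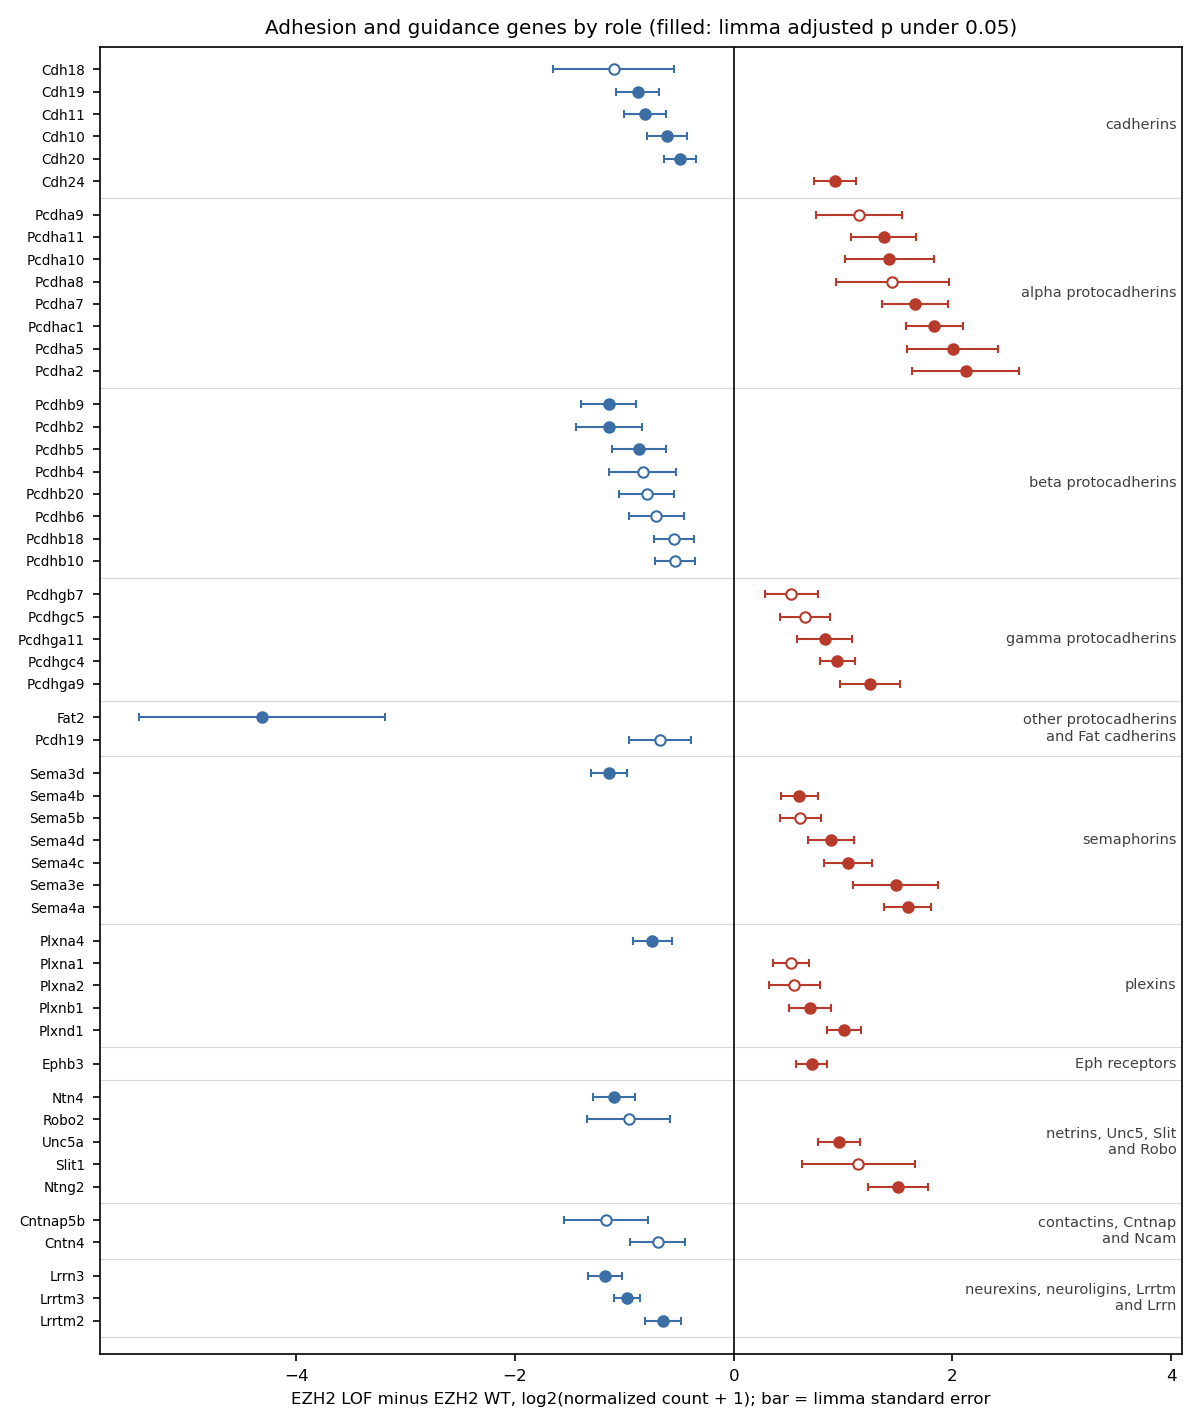
Log2 difference (EZH2 LOF minus EZH2 WT, x axis) of each of the 52 members, grouped by role, with the standard error of limma as a bar and filled points for members with an adjusted p under 0.05. Alpha protocadherins, gamma protocadherins and all semaphorins but Sema3d lie to the right, and beta protocadherins, all cadherins but Cdh24, and the Lrrn and Lrrtm genes lie to the left, with Fat2 farthest at -4.31.

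The clustered protocadherins gave 21 of the 52 members, all on chromosome 18, and were split by array. All 8 alpha genes and all 5 gamma genes were higher in EZH2 LOF tumors, and all 8 beta genes, which lie between these arrays, were lower. The arrays follow each other in mm10 as alpha (chr18:36930184-37187661), beta (chr18:37264938-37524479) and gamma (chr18:37661793-37841873). By limma, 6 alpha and 3 gamma genes passed as higher and 3 beta genes as lower, and the groups did not overlap for 6, 2 and 7 of them. The annotation holds 14 alpha, 22 beta and 22 gamma genes, of which 10, 8 and 5 were on the list, so the other 35 were not analysed here.

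Alpha protocadherins were low in EZH2 WT tumors and were 2.29-fold to 4.07-fold higher in EZH2 LOF tumors. Pcdha2 was at 5.01, 23.9 and 8.28 normalized counts in the EZH2 WT tumors and at 59.6, 51.4, 60.3 and 27.4 in EZH2 LOF replicates 13 to 16, 4.01-fold higher by the means (log2 difference 2.12 ± 0.49, SE). Pcdha5 was at 5.01, 13.3 and 15.01 and at 64.2, 47.1, 39.7 and 29.8 respectively, 4.07-fold higher. The closest tumors of the 2 groups were only a few counts apart for Pcdha2, whereas for Pcdha5 the lowest EZH2 LOF tumor was well above the highest EZH2 WT tumor. Pcdhac1, a C-type isoform that in neurons is used without the random choice made for most others, had the tightest values, 11.7, 9.48 and 12.9 against 45.8, 40.7, 41.9 and 42.9 (11.4 ± 1.75 and 42.8 ± 2.19). It was 3.77-fold higher in EZH2 LOF tumors, and no tumor of either group came near the other group. Pcdhac1 was also the alpha gene that still passed limma without EZH2 LOF replicates 13 and 14 together. The 2 alpha genes left out for their low mean went the same way, with Pcdha3 at 7.99 ± 3.03 and 35.8 ± 15.5 and Pcdha6 at 9.94 ± 2.67 and 37.8 ± 8.86. Of the other alpha members, Pcdha7, Pcdha10 and Pcdha11 passed as higher and Pcdha8 and Pcdha9 did not, with overlap between the groups for Pcdha8 and Pcdha10. Reads for the 8 alpha members summed to between 224 and 287 per EZH2 WT library and between 90 and 566 per EZH2 LOF library.

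Beta protocadherins went the other way, 1.45-fold to 2.37-fold lower in EZH2 LOF tumors. Pcdhb2 was at 303, 122 and 149.6 in the EZH2 WT tumors and at 64.2, 83.5, 100.05 and 75.1 in the EZH2 LOF tumors, 2.37-fold lower (log2 difference -1.14 ± 0.30, SE). Pcdhb9 was at 106, 67.5 and 82.3 against 27.5, 42.8, 43.4 and 38.2, 2.24-fold lower. Pcdhb5 was at 233, 163 and 141 against 119, 79.2, 119.9 and 73.9, 1.83-fold lower. EZH2 WT replicate 1 was the highest tumor for these 3 genes, and each EZH2 LOF tumor was below each EZH2 WT tumor. The other 5 beta members (Pcdhb4, Pcdhb6, Pcdhb10, Pcdhb18 and Pcdhb20) did not pass limma, with log2 differences from -0.83 to -0.54, and the groups overlapped for Pcdhb6 alone.

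Gamma protocadherins were 1.48-fold to 2.34-fold higher in EZH2 LOF tumors. Pcdhga9 was at 37.3, 35.6 and 67.3 in the EZH2 WT tumors and at 77.9, 113, 123 and 124 in the EZH2 LOF tumors, 2.34-fold higher (log2 difference 1.25 ± 0.28, SE). Pcdhgc4, another C-type isoform, was at 109.7, 105 and 134 against 202, 266, 228 and 205, 1.94-fold higher. Both genes were higher in each EZH2 LOF tumor than in any EZH2 WT tumor, whereas Pcdhga11, which passed, and Pcdhgb7 and Pcdhgc5, which did not, overlapped.

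**Figure D2:**
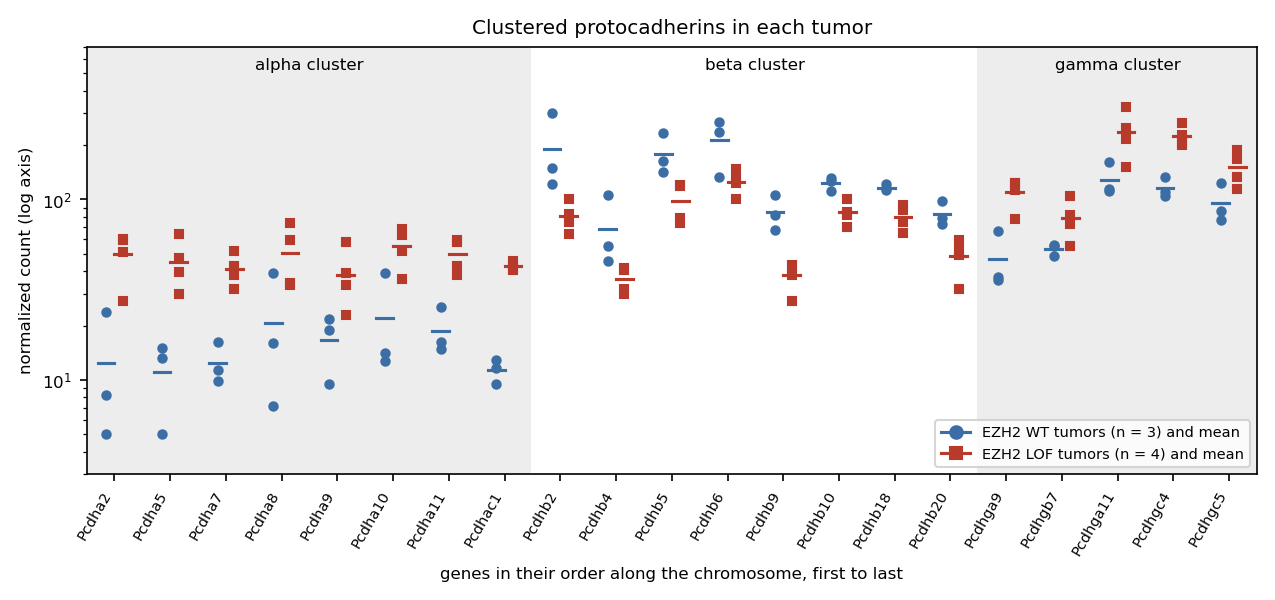
Normalized counts (y axis, log scale) of the 21 clustered protocadherins in their order along chromosome 18, with a point for each tumor and a line at the group mean (EZH2 WT n = 3, EZH2 LOF n = 4). EZH2 LOF means are above EZH2 WT means for the 8 alpha and 5 gamma genes and below them for the 8 beta genes.

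Because the size factor of a library cancels in a ratio of genes, the arrays were also compared within each tumor. Normalized counts of the alpha members summed to 125, 104 and 149 in the EZH2 WT tumors and to 412, 353, 416 and 307 in the EZH2 LOF tumors, and those of the beta members to 1339, 969.8 and 874 and to 577, 546, 679.7 and 564. The ratio of beta to alpha was 10.7, 9.37 and 5.88 in the EZH2 WT tumors (8.66 ± 2.50) and 1.4, 1.55, 1.63 and 1.84 in the EZH2 LOF tumors (1.605 ± 0.184). The ratio was thus lower in each EZH2 LOF tumor than in any EZH2 WT tumor. The means of this ratio differed 5.40-fold, and 4.75-fold to 6.26-fold when any 1 tumor was left out, a range chosen after the values were seen. Gamma members summed to 403, 427 and 491 in the EZH2 WT tumors and to 600.4, 976, 827 and 796 in the EZH2 LOF tumors. The ratio of gamma to beta was 0.435 ± 0.131 and 1.36 ± 0.321 respectively. This ratio was thus higher in each EZH2 LOF tumor than in any EZH2 WT tumor. The beta share of all clustered protocadherin values was 64.7% ± 6.99 in EZH2 WT and 33.7% ± 3.195 in EZH2 LOF tumors. The members summed were those chosen by the contrast on these same tumors, with the alpha and gamma members all higher and the beta members all lower. A gap between the groups in these ratios follows from that choice and is no further support. The ratios describe the listed genes and not the whole arrays.

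**Figure D3:**
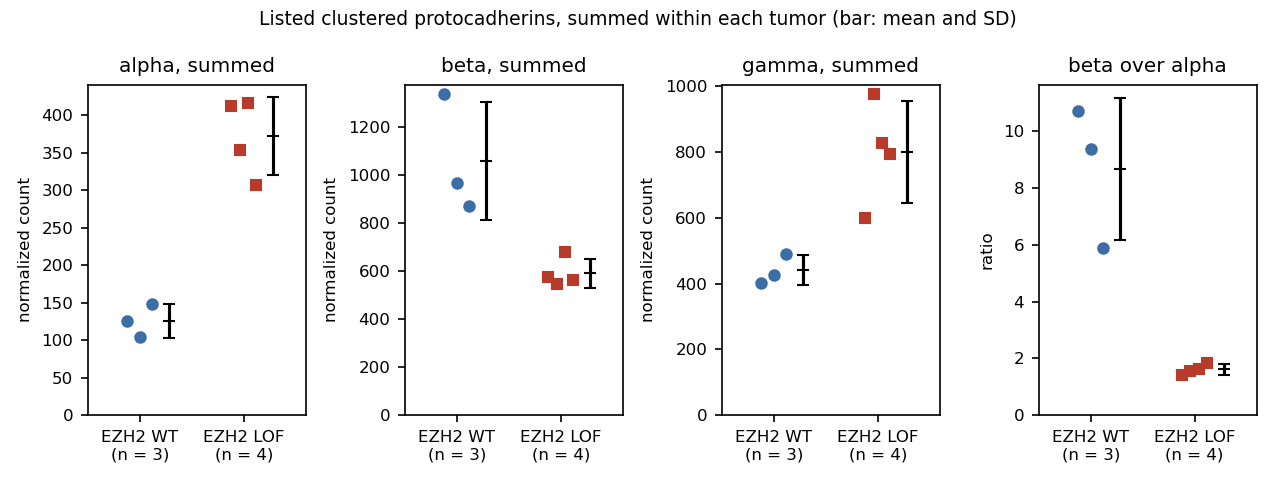
Sums of normalized counts of the listed alpha, beta and gamma protocadherins in each tumor, and the ratio of the beta to the alpha sum (y axes, starting at 0), with the mean and SD beside the points (EZH2 WT n = 3, EZH2 LOF n = 4). The ratio lies between 5.88 and 10.7 in EZH2 WT tumors and between 1.40 and 1.84 in EZH2 LOF tumors.

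Sequence sharing sets a limit on how these genes can be told apart. In the annotated transcripts, 44.0% to 68.7% of the 50-base words of an alpha member, the length of the reads, also occur in another gene, as do 37.1% to 45.9% for a gamma member and 2.06% to 8.75% for a beta member. Reads from the shared constant exons cannot be given to 1 alpha or 1 gamma gene, so single values of these genes are less certain than those of beta genes. For the same reason, the ratios and shares above compare the groups of tumors and not the level of 1 array with another. Of 7 other listed genes within 1000 kb of the arrays, 4 passed limma as lower in EZH2 LOF tumors (Ik and Zmat2 on the alpha side, Rnf14 and Ndfip1 on the gamma side), 1 as higher (Fchsd1 on the gamma side), and 2 did not pass (Hars and Spry4). Their log2 differences ran from -0.61 for Zmat2 to 0.78 for Fchsd1, and this window was chosen after the values were seen. Over all listed genes, 29.7% passed as lower and 31.2% as higher. Of 15 genes known to regulate the arrays, 4 were on the list, and their limma calls are to be read beside the same shares. Their part in the differences of the arrays was not tested. Dnmt3b, a DNA methyltransferase that acts on protocadherin promoters, was at 10.02, 11.4 and 6.21 in EZH2 WT and at 36.7, 29.98, 34.6 and 25.05 in EZH2 LOF tumors and Dnmt3a rose 1.33-fold, while Stag2, a cohesin subunit, fell 1.49-fold and Smchd1, a chromatin protein of silenced genes, fell 1.29-fold (limma, adjusted p under 0.05 for the 4).

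Classical cadherins were mostly lower in EZH2 LOF tumors, 5 of 6, with 4 lower and 1 higher by limma. Cdh19, a cadherin known from Schwann cell precursors, was at 739, 487 and 647 in the EZH2 WT tumors and at 275, 289, 441 and 357 in the EZH2 LOF tumors, 1.83-fold lower. Cdh11, a mesenchymal type II cadherin, was at 1001, 738 and 540.2 against 417, 368, 456 and 440.1, 1.81-fold lower. Cdh10, a type II cadherin of the brain, was at 521, 321 and 331 against 229, 239.8, 247 and 284, 1.56-fold lower. None of the 3 overlapped between the groups. Cdh24 was the exception in direction, with 49.6, 43.99 and 61.6 in the EZH2 WT tumors and 87.1, 103, 97.8 and 106 in the EZH2 LOF tumors, 1.9-fold higher without overlap. Of the remaining members, Cdh20 was lower and Cdh18 did not pass, with overlapping groups.

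Fat2 had the largest log2 difference of all members and the widest spread among EZH2 WT tumors. This giant cadherin, known from cerebellar granule cells, was at 104, 837 and 11.4 in the EZH2 WT tumors and at 9.17, 4.28, 2.94 and 2.39 in the EZH2 LOF tumors, which in the latter rests on 2 to 4 reads per library. EZH2 WT replicate 2 was far above the other EZH2 WT tumors, and EZH2 WT replicate 3 was close to the EZH2 LOF tumors. Its log2 difference was -4.31 ± 1.12 (SE), it moved to -2.80 without EZH2 WT replicate 2 and to -3.61 with a pseudocount of 5, and it passed limma in 1 of the 7 fits that each left out a tumor. None of 12 cerebellar granule cell markers, looked up after the values of Fat2 were seen, was on the list. The list holds only genes called between the groups, so absence from it gives no level for these markers. Whether such cells were present in a tumor was not tested. Pcdh19, a protocadherin outside the arrays that is encoded on the X chromosome, was at 350.2, 178 and 136 in the EZH2 WT tumors and at 109.99, 143, 121 and 138 in the EZH2 LOF tumors, which overlapped, and it did not pass limma.

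Among the guidance cues, semaphorins were higher in EZH2 LOF tumors in 6 of 7 cases, and 5 of these passed limma. Sema4a, a membrane-bound semaphorin, was at 33.4, 31.5 and 27.4 in the EZH2 WT tumors and at 87.1, 79.2, 99.3 and 116 in the EZH2 LOF tumors, 3.1-fold higher (log2 difference 1.59 ± 0.21, SE). Sema3e, a secreted ligand that binds Plxnd1 directly, was at 43.4, 24.7 and 28.5 against 64.2, 51.4, 126 and 151, 3.05-fold higher. Sema4c, a ligand of Plxnb2, was at 144, 133 and 250.5 against 298, 415, 361 and 330.4, 2-fold higher. The groups were apart for all 3, by a wide margin for Sema4a and a narrow one for Sema3e, whose EZH2 LOF tumors also differed among themselves (replicates 15 and 16 above 13 and 14, the 2 shallow libraries). Sema4b and Sema4d, the ligand of Plxnb1, were 1.52-fold and 1.86-fold higher, and both passed, but Sema4b passed in 0 and Sema4d in 5 of the 7 fits that left out a tumor (Sema4a in 7 and Sema4c in 6). Sema5b was 1.52-fold higher by the means, overlapped and did not pass.

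Sema3d (chr5:12383165-12588943) ran against its family. This secreted class 3 semaphorin was at 3643, 2781 and 2820.2 in the EZH2 WT tumors and at 1219, 1323, 1771 and 1304 in the EZH2 LOF tumors, 2.19-fold lower (log2 difference -1.14 ± 0.16, SE), with no overlap. It was also the most abundant of the 31 members outside the protocadherin arrays: per kb of annotated exon its level was 359 ± 56.6 normalized counts in EZH2 WT and 163 ± 28.96 in EZH2 LOF tumors, the highest in both groups. In EZH2 WT tumors the next levels per kb were those of Lrrtm3 (175 ± 14.3), Cdh20 (148 ± 30.6) and Cdh19 (146 ± 29.9), which did not differ from each other beyond their SD. In EZH2 LOF tumors Plxnb1 (142 ± 5.84) and Plxnd1 (126 ± 24.6) came next, and Sema3d and Plxnb1 did not differ beyond their SD.

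Plexins, the semaphorin receptors, were higher in 4 of 5 cases, and 2 of these passed limma. Plxnd1 was at 425, 479 and 449 in the EZH2 WT tumors and at 829.5, 1066, 1077 and 714 in the EZH2 LOF tumors, 2.04-fold higher. Plxnb1 was at 1124, 587 and 906 against 1324, 1329.7, 1446 and 1358, 1.56-fold higher. Plxna4, which signals with neuropilins for class 3 semaphorins, was at 302, 254 and 211 against 128, 149.9, 146 and 184, 1.68-fold lower. The groups did not overlap for these 3 receptors. Ligand and receptor were thus higher together for the pairs Sema3e with Plxnd1 and Sema4d with Plxnb1, and both were chosen by the same contrast. Of the 7 fits that left out a tumor, Sema3e passed in 3 and Plxnd1 in 7, and Sema4d passed in 5 and Plxnb1 in 1. Plxna1 and Plxna2 had means 1.44-fold and 1.54-fold higher, overlapped and did not pass.

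**Figure D4:**
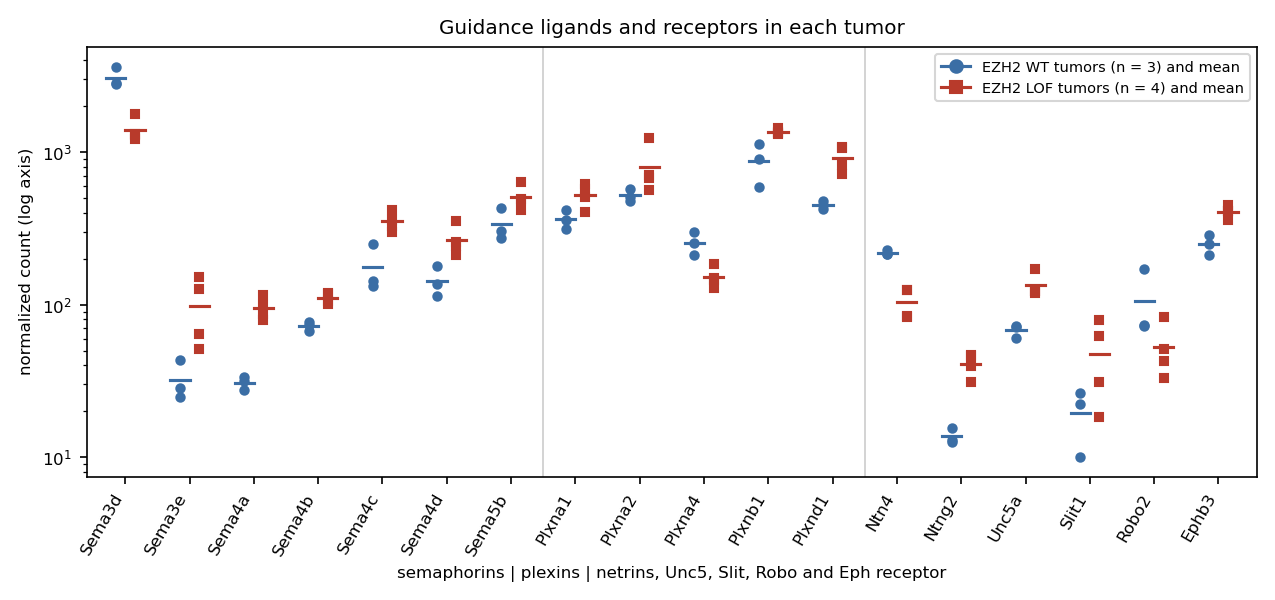
Normalized counts (y axis, log scale) of the semaphorins, plexins, netrins and other guidance members in each tumor, with a line at the group mean (EZH2 WT n = 3, EZH2 LOF n = 4). Sema3d is the highest and falls from 3081 to 1404 by the means, Sema4a and Ntng2 show EZH2 LOF tumors clear of EZH2 WT tumors, and Slit1 and Robo2 overlap.

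The other guidance families were mixed. Ntng2, a netrin-G that is anchored in the membrane at synapses, was at 15.6, 12.5 and 12.9 in the EZH2 WT tumors and at 45.8, 47.1, 39.7 and 31.01 in the EZH2 LOF tumors, 2.99-fold higher. Unc5a, a receptor for repulsion by netrin, was at 60.1, 72.4 and 70.9 against 124, 171, 122 and 119, 1.98-fold higher. Ntn4, a secreted netrin that binds laminin, was at 227, 215 and 216 against 82.5, 124, 124 and 84.7, 2.11-fold lower. The 3 genes were apart between the groups and passed in each of the 7 fits that left out a tumor. Slit1, a repellent ligand, and Robo2, a Slit receptor, differed in opposite directions with overlapping groups and did not pass. Ephb3, a receptor tyrosine kinase for ephrin-B ligands and the only Eph receptor among the members, was at 251, 210.1 and 287 in the EZH2 WT tumors and at 357, 449.7, 411 and 410.3 in the EZH2 LOF tumors, 1.63-fold higher without overlap. No ephrin was a member: Efna5, a ligand of EphA receptors, was left out for its low mean, at 5.01, 15.9 and 5.69 against 22.9, 34.3, 22.1 and 54.9.

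Synaptic adhesion genes of the Lrrn and Lrrtm families were lower in EZH2 LOF tumors, 3 of 3, and all passed limma. Lrrn3, a leucine-rich repeat protein of neurons, was at 552, 466 and 367 in the EZH2 WT tumors and at 202, 206, 213 and 182 in the EZH2 LOF tumors, 2.3-fold lower. Lrrtm3, a postsynaptic binding partner of neurexins (chr10:63928496-64090255), was at 773, 674 and 785 against 367, 418, 391 and 339.9, 1.96-fold lower. Lrrtm2, of the same family, was at 621, 416 and 426 against 279.6, 321, 354 and 276, 1.59-fold lower. The groups were apart for the 3 genes, and Lrrn3 and Lrrtm3 were the only lower members to pass limma without EZH2 LOF replicates 13 and 14. Cntnap5b, a contactin-associated protein, was at 459, 172 and 129 in the EZH2 WT tumors and at 91.7, 70.7, 126 and 104 in the EZH2 LOF tumors, and Cntn4, a contactin, at 429, 190.01 and 293 and 197, 156, 152 and 212. Cntnap5b was apart by a few counts and high in EZH2 WT replicate 1, Cntn4 overlapped, and neither passed.

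The members outside the arrays also differed in gene span and, less clearly, in promoter sequence. Genes higher in EZH2 LOF tumors (n = 15) had a median span of 46.3 kb and those lower (n = 16) of 178.5 kb, against 27.0 kb and 28.2 kb over all higher and lower genes of the list. Spans over 200 kb were found in 1 of the former and 7 of the latter. Over the list they were found in 103 of 1727 higher and 106 of 1806 lower genes. Promoter windows of 300 bases (250 before to 50 after a RefSeq start, build GRCm38.p6) lay within 1000 bases of the listed start for 12 higher and 9 lower members. They held a median of 24 CG pairs (range 6 to 37) for the higher and 14 (range 4 to 31) for the lower members, against 22 and 21 over the list and 7 over all windows of the RefSeq table, of which 94.6% hold at least 1 CG. The ranges overlap widely, which 4 members of different families show: Unc5a (chr13:54949161-54949460, plus strand, 37 CG pairs) and Sema4a (chr3:88455712-88456011, minus strand, 7 CG pairs) were higher, and Ntn4 (chr10:93640799-93641098, plus strand, 31 CG pairs) and Lrrtm3 (chr10:64090206-64090505, minus strand, 10 CG pairs) were lower. Their windows are printed in the direction of transcription with each CG, which reads the same on both strands, in capitals. A count of CG pairs is a description of these letters and not a measure of methylation.
Unc5a: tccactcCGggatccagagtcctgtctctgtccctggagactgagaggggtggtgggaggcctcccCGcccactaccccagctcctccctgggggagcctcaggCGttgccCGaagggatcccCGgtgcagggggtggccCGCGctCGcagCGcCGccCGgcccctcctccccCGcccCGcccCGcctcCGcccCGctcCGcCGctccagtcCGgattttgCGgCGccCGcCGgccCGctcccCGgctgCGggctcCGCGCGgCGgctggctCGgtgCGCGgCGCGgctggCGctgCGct
Sema4a: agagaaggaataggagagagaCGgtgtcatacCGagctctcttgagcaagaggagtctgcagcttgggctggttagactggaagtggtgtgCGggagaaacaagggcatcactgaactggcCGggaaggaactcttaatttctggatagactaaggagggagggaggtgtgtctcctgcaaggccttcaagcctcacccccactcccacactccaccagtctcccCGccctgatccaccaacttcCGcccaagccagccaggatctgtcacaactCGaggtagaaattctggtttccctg
Ntn4: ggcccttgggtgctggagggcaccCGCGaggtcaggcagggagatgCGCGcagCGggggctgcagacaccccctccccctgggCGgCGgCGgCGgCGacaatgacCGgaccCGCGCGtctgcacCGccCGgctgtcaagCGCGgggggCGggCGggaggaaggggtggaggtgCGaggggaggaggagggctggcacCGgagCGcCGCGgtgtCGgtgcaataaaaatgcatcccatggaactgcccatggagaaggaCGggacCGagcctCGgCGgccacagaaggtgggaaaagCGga
Lrrtm3: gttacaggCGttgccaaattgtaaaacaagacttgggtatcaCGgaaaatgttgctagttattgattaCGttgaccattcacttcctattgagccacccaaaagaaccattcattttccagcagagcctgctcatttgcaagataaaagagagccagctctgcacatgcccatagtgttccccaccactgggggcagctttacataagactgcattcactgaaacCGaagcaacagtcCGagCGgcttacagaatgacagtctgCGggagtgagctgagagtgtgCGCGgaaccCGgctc

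Related genes outside the chosen symbols were mixed in the same way. Of 47 adhesion and guidance partners looked up, 18 were on the list, with 7 higher, 6 lower and 5 not passing by limma. Over all listed genes, 31.2% passed as higher and 29.7% as lower. Chl1, an L1-family adhesion molecule, was at 249, 397 and 400.01 in EZH2 WT and at 577, 1392, 1435 and 1290.5 in EZH2 LOF tumors, 3.37-fold higher, whereas Nrcam, of the same family, was 2.07-fold lower (1309.5 ± 392 against 631 ± 117). Tenm3, a teneurin of synaptic partner matching, was 2.61-fold higher (349.6 ± 176 against 914 ± 92.4). Of 42 catenins and intracellular effectors, 19 were on the list, with 5 higher, 6 lower and 8 not passing, to be read beside the same shares. The lower ones included Pak1, a kinase downstream of Rac, at 606, 934 and 793 in EZH2 WT and 367, 351, 309 and 366 in EZH2 LOF tumors, Rac1 itself (1.47-fold lower) and Cfl1, the actin-severing protein cofilin (1.41-fold lower). The higher ones included Dpysl5, a collapsin response mediator (2.21-fold), and Limk1, the kinase that inactivates cofilin (1.76-fold). These examples were picked after their values were seen.

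Members were somewhat more variable than the list as a whole. The median coefficient of variation was 23.99% in EZH2 WT and 18.6% in EZH2 LOF tumors for the 52 members, against 17.5% and 14.02% over the 3533 genes, and it was larger in the EZH2 WT group for 34 of the 52. The 20 higher calls became 10, 13 and 12 without EZH2 WT replicate 2, EZH2 LOF replicate 15 and EZH2 LOF replicate 16, where the 1102 higher calls over the list became 458, 641 and 541. The 14 lower calls became 6 and 9 without EZH2 WT replicates 1 and 2, where the 1048 over the list became 662 and 357. Without EZH2 LOF replicates 13, 14, 15 and 16 the lower calls became 7, 7, 9 and 7, where those over the list became 591, 642, 584 and 416. Of the 34 members that passed limma, 14 also passed in every fit that left out 1 tumor. Without EZH2 LOF replicates 13 and 14, the 2 shallowest libraries, 5 passed, which were Pcdhac1, Sema3e and Sema4a as higher and Lrrn3 and Lrrtm3 as lower, and the fit then had 2 EZH2 LOF tumors and called 182 higher and 89 lower genes over the list.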

How the data were processed

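Total RNA of flash-frozen tumors was depleted of rRNA, made into stranded libraries and sequenced as single-end reads of 50 bases. The tools named by the study's methods and the processing notes are FastQC for quality, Trim Galore for trimming, STAR for alignment to mm10, HTSeq for gene counts and DESeq2 for tests. No tool version is given in the sources used here. The deposited signal values are HTSeq counts over DESeq2 size factors, as the authors computed them, in a table limited to genes called at an FDR under 0.05. Genes not on it were not analysed here. The authors' fold changes were not used, and the deposited p-values only selected the table and gave the number of genes the authors had tested, 13391. Dividing a library's values by its smallest step gave whole reads for 100% of genes within 0.001 reads. EZH2 LOF and EZH2 WT were compared by a two-sided limma test (3.58.1, under R 4.3.3) of log2(value + 1) that let the variance follow the mean, with Benjamini-Hochberg adjustment over 13391 genes, unlisted genes counting with a p of 1. Fold changes are ratios of group means, and p-values measure only the spread between these tumors. The test was checked on simulated data, scored only for genes above a low level, so the check does not cover low members such as the alpha protocadherins. edgeR 4.0.16 and DESeq2 1.42.0 on the recovered reads, another scaling (TMM), other pseudocounts, filters and left-out tumors were alternatives. Exon lengths and shared words came from GENCODE M21, promoter windows from RefSeq. In each family, up to 3 members with the largest difference in each direction and no overlap between the groups were described tumor by tumor, and all members of families of up to 4. Other genes were named after their values were seen. The members and lists were chosen with earlier results of these data known. EZH2 GOF tumors were processed apart and enter no test.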

Additional observations from a re-analysis of the deposited data

Results flagged for a closer look

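Among the 52 members, 1 EZH2 LOF tumor stood far from the other 3 for 2 genes. Unc5a was at 171 normalized counts in EZH2 LOF replicate 14, above the others, and Cdh18 was at 27.5 in EZH2 LOF replicate 13, where 1 read is worth 4.58. Such a gap appears by chance in about 1 in 20 groups, and 52 were examined.

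The 2 genes left out because they were also called in EZH2 GOF tumors differed from their controls in opposite directions in the 2 experiments. Ncam2, a neural cell adhesion molecule, had a log2 difference of -0.74 in EZH2 LOF tumors and of 0.94 in EZH2 GOF tumors against their own controls. Cdh13, a cadherin without an intracellular domain, had -0.49 and 1.12. Each tumor of a group was on the same side of all its controls. By the study, RNA reads showed the Y641F allele in only 1 of the 4 EZH2 GOF tumors. The study leaves the reason unclear and names limited detection by RNA-seq as a possible one. Opposite directions here are thus not shown to be responses to loss and gain of EZH2. The experiments were normalized apart and used different controls, of which RCAS-Y replicate 1 holds 14796 reads in the listed genes, each worth 10.7 normalized counts, and the difference between them was not tested.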

How the results depend on the processing

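The direction of all 52 members, chosen on these same tumors, was the same in the 15 alternative fits, but the number passing limma was not. Against 20 higher and 14 lower members, leaving out 1 tumor gave 10 to 18 higher (10 without EZH2 WT replicate 2) and 6 to 17 lower (6 without EZH2 WT replicate 1). Leaving out EZH2 LOF replicates 13 and 14 together gave 3 higher and 2 lower members, with fewer EZH2 LOF tumors, while the calls over the list went from 1102 and 1048 to 182 and 89. Without the variance trend 9 lower members passed. edgeR called 21 higher and 14 lower, DESeq2 24 and 20, and the TMM scaling 22 and 12. Of 360 recomputed log2 differences of the 30 members described by tumor, 359 moved by less than the spread between tumors and 1, Pcdhac1 with a pseudocount of 5, moved to 1.55. Most of these could not move further: the variance trend does not enter the difference, and leaving out 1 tumor shifts a group mean by less than its spread. The count is therefore no sign of robustness, and Fat2 still went from -4.31 to -2.80 without EZH2 WT replicate 2. The causes were not tested. In EZH2 LOF replicate 13, Fat2 rests on 2 reads and single alpha genes on 5 to 15, which limits these values. No paired analysis was possible because EZH2 WT replicates 1 to 3 and EZH2 LOF replicates 13 to 16 share no replicate number.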
